A study of Mus musculus with 9 samples.

Results

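The Tcl1 family of the mouse egg was examined as the 6 genes named Tcl1, Tcl1b1, Tcl1b2, Tcl1b3, Tcl1b4 and Tcl1b5, taken by name from the 30153 genes of the count tables. All 6 were found, and all 6 passed the filter on low counts in each comparison. The samples were pools of metaphase II oocytes, ovulated eggs that wait in the second meiosis for fertilisation, from 4-week-old females of mixed genetic background. Every female carried Sycp3CreERT2/+, a drug-inducible Cre recombinase expressed from the Sycp3 locus in germ cells in meiosis, and Rosa26nT-nG/+, a reporter that makes nuclear red fluorescent protein before and nuclear green fluorescent protein after Cre acts. The females were given 5 IU PMSG and, 48 h later, 5 IU hCG, and eggs were collected 13 h after hCG, freed of cumulus by hyaluronidase and hand-picked under fluorescence. GFP High (pools of 15 to 16 oocytes), GFP Low (49 to 57) and RFP (87 to 100) had 3 libraries each. All groups thus share both alleles and the hormone treatment, the smaller pools are those of GFP High, and the picking by eye sets the group. The labels do not say whether the pools of a group came from separate females, so p-values measure the spread between these pools.

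TCL1 proteins are small barrel-shaped proteins with no enzyme activity of their own. TCL1 binds the pleckstrin homology domain of the kinase AKT and promotes its activation, and it is best known as an oncogene of lymphocytes. In the mouse, Tcl1 and the Tcl1b genes are transcribed in oocytes and early embryos, and loss of maternal Tcl1 impairs cleavage of the embryo. A metaphase II egg makes almost no new RNA, so the transcripts measured were stored during oocyte growth, not yet degraded and captured as poly-A RNA. Tail lengths were not measured, so the levels are those of poly-A RNA and not of all stored RNA.

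The 6 genes lie side by side on chromosome 12 over 76.8 kb (build GRCm38), and no other annotated gene overlaps any of them. Tcl1b2 (ENSMUSG00000060863, 105146014 to 105155225), Tcl1b1 (ENSMUSG00000066359, 105159690 to 105166625), Tcl1b5 (ENSMUSG00000000701, 105176344 to 105181145), Tcl1b3 (ENSMUSG00000068940, 105191043 to 105195612) and Tcl1b4 (ENSMUSG00000079007, 105201957 to 105206993) follow each other on the plus strand. Tcl1 (ENSMUSG00000041359, 105216750 to 105222793) closes the cluster on the minus strand, so that Tcl1b4 and Tcl1 point towards each other. All 6 are protein coding, and the lowest-numbered transcript of each gene in GENCODE M21 has 4 exons. Between 2 Tcl1b genes these transcripts were 85.6% to 93.3% identical over aligned bases, whereas Tcl1 was 67.0% to 68.0% identical to each of the 5 Tcl1b genes. Gap positions, left out of these shares, numbered 20 to 59 between 2 Tcl1b genes but 465 to 486 with Tcl1, so the shares with Tcl1 overstate its likeness.

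The likeness of the Tcl1b genes extended to their start regions. The 130 bases before the RefSeq start of each gene (RefSeq, GRCm38.p6) are given below in the order of the genes along the chromosome, each on its own strand, to show what the 5 Tcl1b starts share and where Tcl1 differs. Capitals mark CACCTG or, on the other strand, CAGGTG, an E-box, which is the kind of site bound by basic helix-loop-helix factors. The windows are chr12:105146889-105147018, chr12:105159574-105159703, chr12:105176214-105176343, chr12:105190915-105191044 and chr12:105202265-105202394 on the plus strand and chr12:105222738-105222867 on the minus strand. Except for Tcl1b5, the RefSeq starts differ from the gene starts given above. The windows of Tcl1b2 and Tcl1b4 lie wholly inside the genes as given above, which start at 105146014 and 105201957. That of Tcl1 reaches past the gene's first base at 105222793, and its CACCTG lies inside the gene. Those of Tcl1b1 and Tcl1b3 end a few bases inside.
Tcl1b2: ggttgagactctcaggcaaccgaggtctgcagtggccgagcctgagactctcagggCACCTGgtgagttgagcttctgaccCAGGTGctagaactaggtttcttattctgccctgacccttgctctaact
Tcl1b1: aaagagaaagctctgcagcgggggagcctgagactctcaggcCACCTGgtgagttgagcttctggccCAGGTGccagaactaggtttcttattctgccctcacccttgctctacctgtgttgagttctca
Tcl1b5: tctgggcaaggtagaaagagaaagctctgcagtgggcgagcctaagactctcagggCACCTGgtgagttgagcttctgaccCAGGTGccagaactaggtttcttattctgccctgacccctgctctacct
Tcl1b3: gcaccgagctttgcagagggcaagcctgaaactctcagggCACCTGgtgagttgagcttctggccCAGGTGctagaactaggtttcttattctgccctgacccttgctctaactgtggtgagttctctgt
Tcl1b4: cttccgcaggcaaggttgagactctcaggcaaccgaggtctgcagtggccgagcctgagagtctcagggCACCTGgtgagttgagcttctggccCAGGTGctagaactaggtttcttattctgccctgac
Tcl1: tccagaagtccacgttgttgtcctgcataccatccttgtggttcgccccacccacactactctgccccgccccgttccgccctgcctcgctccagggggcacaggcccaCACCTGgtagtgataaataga

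Each Tcl1b window held the letters CACCTG and CAGGTG with 25 bases between their first letters, and the window of Tcl1 held CACCTG alone. Windows of 300 bases (250 before and 50 after the RefSeq start) were searched on both strands. At least 1 match was present in 6 of 6 family windows and in 20.2% of 32851 promoters in the RefSeq table. At least 2 were present in 5 of 6 and in 2.88%. The 5 Tcl1b windows are much alike, so their matches are not independent of each other. The shares of all promoters are therefore a scale and not a test of enrichment. Every CACCTG is also a match to the looser CANNTG, which 72.3% of all promoters held. TATAAA was found in 0 of 6 and in 13.6% of all promoters, TAATTG, a binding element of the oocyte factor NOBOX, in 0 of 6 and in 8.0%, and CCGCCC, a GC box, in Tcl1 alone among the 6 and in 35.7%. These matches describe the letters of the windows, and binding was not measured. Over aligned bases, pairwise identity of the 300-base windows of the Tcl1b genes ran from 75.4% to 98.6%, the highest between Tcl1b2 and Tcl1b4. Gap positions, from 26 to 136 in a pair, are left out of these shares.

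The similarity of the Tcl1b genes bears on how far their reads can be told apart. Of all stretches of 50 bases in the annotated transcripts of a gene, 34.1% in Tcl1b3, 24.0% in Tcl1b2, 20.8% in Tcl1b5, 12.4% in Tcl1b1 and 2.88% in Tcl1b4 also occurred in a transcript of another gene, each time another Tcl1b gene. For stretches of 100 bases the shares were 9.09%, 6.71%, 1.46%, 0.0963% and 0, in the same order. The read length and the treatment of reads that match several genes are not given in the sources used here, so the levels of all 5 Tcl1b genes are uncertain by an unknown part of these shares, least so for Tcl1b4, and Tcl1 has no shared stretch at these lengths.

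The libraries held 19381677 to 27746256 counts. eGFP was counted 869 to 1081 times in GFP High, 282 to 662 times in GFP Low and 0 to 16 times in RFP, and tdTomato 0 to 2, 16 to 35 and 46 to 94 times, in the order of the labels. GFP High libraries had fewer genes with 5 counts or more, 13773 to 16006 against 17041 to 17663 in the other 6 libraries. All 8 oocyte markers fixed for the check were present, with a mean of at least 72.3 CPM (counts scaled to the library total and TMM factor) each. The 12 cumulus and granulosa markers summed to 7.24 to 47.1 CPM in GFP High libraries, 12.8 to 41.6 in those of GFP Low and 15.5 to 58.5 in those of RFP, with Amhr2 and Pgr at 2 counts or fewer in every library and Cyp19a1 at 165 to 499 counts. GFP High 1, GFP Low 1 and RFP 2 stood apart in Ptx3, a protein of the cumulus matrix, at 5.81, 6.29 and 9.70 CPM against 1.59 or less in the other 6 libraries, and in Tnfaip6, another matrix gene, at 7.19, 6.65 and 10.9 CPM against 1.06 or less. In pooled RNA, fewer cells of a type and less RNA per cell cannot be told apart. Their part in the spread of the family genes was not tested.

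Together the 6 genes took 0.0796% to 0.113% of all counts in a library. Their summed level was 1029 ± 118 CPM for GFP High (mean ± SD, n = 3), 932.6 ± 7.22 for GFP Low and 983.7 ± 170.5 for RFP. Its lowest and highest values were both in RFP, 795 CPM in RFP 3 and 1127 in RFP 1, so the range of RFP covered all GFP libraries. In this sum GFP Low was the most even group, at 932, 926 and 940.1 CPM in libraries 1, 2 and 3. By SD over mean of the single genes, it was the most even for Tcl1, Tcl1b1 and Tcl1b3 only. RFP was so for Tcl1b4 and Tcl1b5, and GFP High for Tcl1b2.

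Tcl1 alone supplied 64.8% to 70.2% of the family's scaled counts. Compared per length, with RPKM (CPM per kilobase of all exons of the gene), Tcl1 reached 360.4 ± 42.0 over the 9 libraries (SD, n = 9) and ranked 69 among 12919 protein-coding genes. On the same scale Ooep, of the subcortical maternal complex, was at 315.9 ± 25.3, Bmp15, an oocyte-secreted growth factor, at 273.0 ± 15.4 and Mos, the kinase of metaphase II arrest, at 49.9 ± 7.14. Tcl1b3 followed with 105.8 ± 15.7 RPKM (rank 401), Tcl1b1 with 85.9 ± 13.0 (rank 513) and Tcl1b2 with 57.4 ± 6.26 (rank 851). Tcl1b5 with 19.9 ± 7.95 (rank 2426) and Tcl1b4 with 15.9 ± 1.80 (rank 2891) formed the low end. The 6 genes of a single cluster thus spanned more than the distance between Ooep and Mos.

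Most steps of that order held in every library. The shared stretches of the Tcl1b genes are the same in each library, so such counts cannot tell whether reads were misplaced among these genes. Tcl1 exceeded Tcl1b3 in 9 of 9 libraries, by 2.82 to 3.82 times in RPKM. Tcl1b3 exceeded Tcl1b1 in 9 of 9 libraries, by 1.09 to 1.43 times, although their ranges over the libraries overlapped. Tcl1b1 exceeded Tcl1b2 in 9 of 9, by 1.28 to 1.92 times, and Tcl1b2 exceeded Tcl1b5 in 9 of 9, by 1.69 to 6.41 times. Tcl1b5 and Tcl1b4 did not differ beyond their spread, with Tcl1b5 higher in 6 of 9 libraries at ratios from 0.569 to 1.99. The last step depended on the length used. With the length of the lowest-numbered transcript in place of all exons, a choice made after seeing the data, Tcl1b4 (1031 in place of 1496 bases) came to 23.1 ± 2.61 RPKM, above Tcl1b5 in 8 of 9 libraries, and the ranges of Tcl1b1 and Tcl1b2 (71.6 ± 7.79 RPKM) then overlapped.

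**Figure D1:**
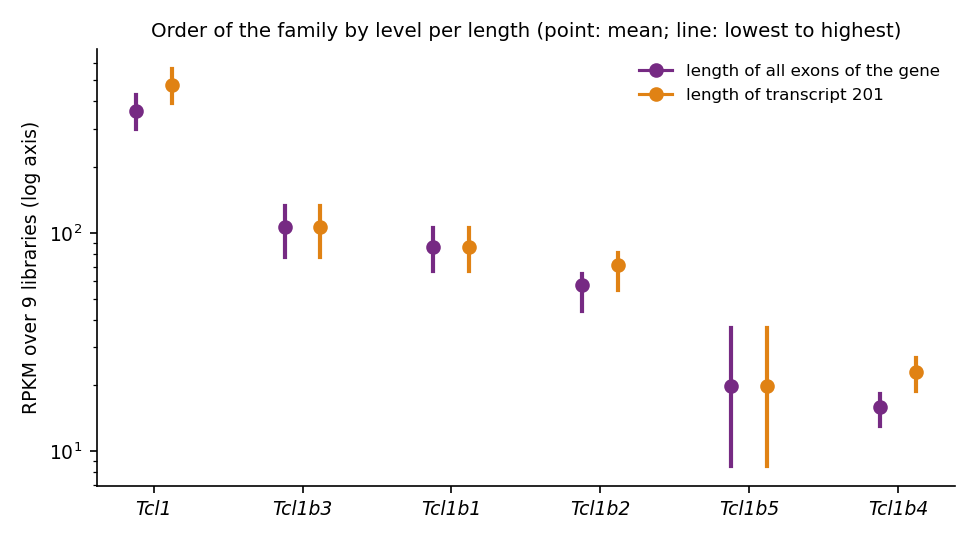
RPKM (log axis) of each family gene over the 9 libraries, with the mean as a point and a line from the lowest to the highest library, for 2 choices of gene length. Tcl1 stands above the 5 Tcl1b genes with either length, while Tcl1b5 (19.9 RPKM) and Tcl1b4 (15.9 or 23.1 RPKM) overlap.

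The genes around the cluster on chromosome 12 were mostly low. Of 20 other genes of the tables that start within 500 kb of the outer family genes, 11 had a mean of 1 CPM or more, and 3 exceeded the lowest family gene in RPKM. Among the 11 protein-coding neighbours these were Glrx5, an enzyme of mitochondrial iron-sulfur cluster assembly, at 48.2 ± 4.61 RPKM and Dicer1, the RNase that makes small RNAs, at 32.9 ± 2.41 (SD, n = 9), both on the Tcl1b2 side. The other was Scarna13, a small RNA gene of 275 bases on the same side, at 37.6 ± 19.1 RPKM. The gap between Glrx5 and Tcl1b2 is 103.1 kb and holds the processed pseudogene Gm47672, with 0 to 67 counts. On the Tcl1 side the next gene, Tunar, lies 111 kb away and had 0 to 3 counts. From Tunar to Bdkrb2 none of 5 genes exceeded 15 counts in any library. Farther out Bdkrb1, a bradykinin receptor, had 6.46 ± 1.56 RPKM, Ak7, an adenylate kinase, 4.07 ± 0.769, Atg2b, an autophagy gene, 2.60 ± 0.310 and Gskip 0.578 ± 0.165. Mtcp1, the family member on the X chromosome (75410444 to 75416588), had 0 to 20 counts in a library and so at most 0.813 CPM.

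**Figure D2:**
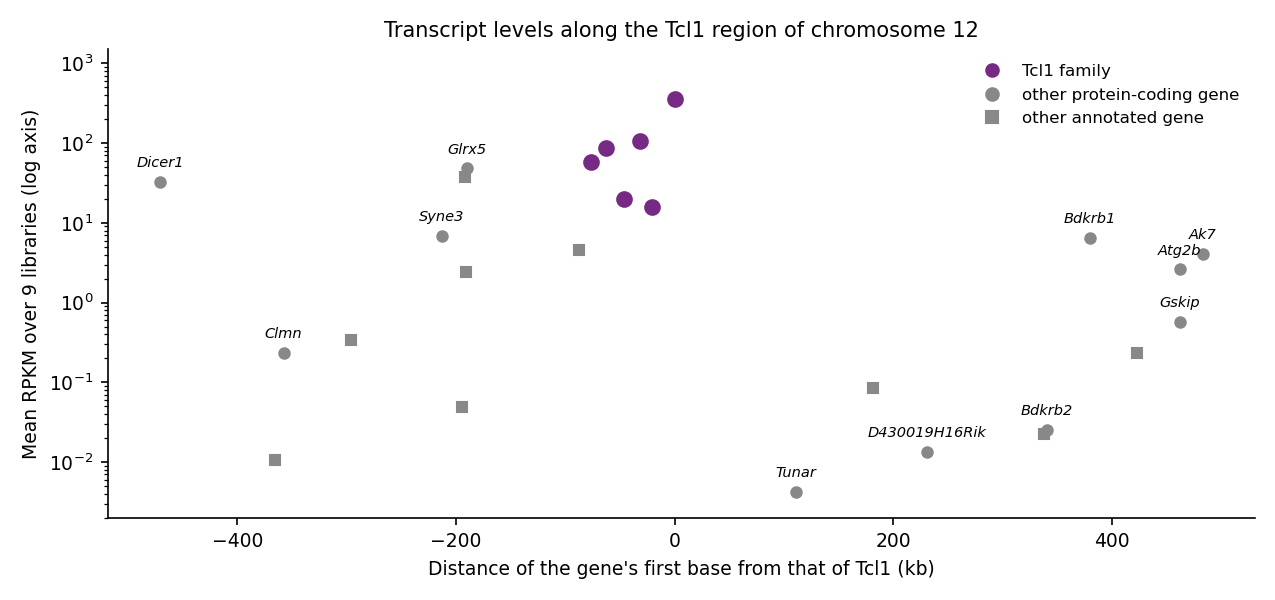
Mean RPKM over the 9 libraries (log axis) of each gene within 500 kb of the cluster, against the distance of its first base from that of Tcl1 in kb. The 6 family genes lie between 15.9 and 360.4 RPKM, and the 5 genes from Tunar to Bdkrb2 on the right lie at 0.0859 RPKM or less.

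The level of each gene was then followed through the libraries, beginning with Tcl1. In CPM, Tcl1 had 598, 770.5 and 690.3 in GFP High 1, 2 and 3. It had 621, 627 and 660.2 in GFP Low 1, 2 and 3, and 785, 683 and 549 in RFP 1, 2 and 3. RFP held both the highest and the lowest library, and the 3 groups overlapped. Tcl1b3 had 111.1, 119 and 139 CPM in GFP High 1, 2 and 3. It had 102, 102 and 101.1 in GFP Low 1, 2 and 3, and 120.2, 121 and 81.4 in RFP 1, 2 and 3. All GFP High libraries lay above all GFP Low libraries, and RFP spread from below GFP Low into the GFP High range. Tcl1b1 had 77.3, 91.4 and 108 CPM in GFP High 1, 2 and 3. It had 88.1, 86.7 and 78.2 in GFP Low 1, 2 and 3, and 109.7, 94.1 and 69.8 in RFP 1, 2 and 3. As for Tcl1, RFP 1 was the highest and RFP 3 the lowest library.

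Tcl1b2 had 73.0, 77.6 and 73.5 CPM in GFP High 1, 2 and 3. It had 80.2, 71.2 and 69.1 in GFP Low 1, 2 and 3, and 69.0, 81.2 and 54.9 in RFP 1, 2 and 3. Apart from RFP 3 its libraries lay within a narrow band. Tcl1b4 had 23.3, 27.5 and 27.1 CPM in GFP High 1, 2 and 3. It had 20.7, 19.5 and 22.5 in GFP Low 1, 2 and 3, and 24.8, 25.3 and 23.3 in RFP 1, 2 and 3. Each GFP Low library was below each library of the other groups. Tcl1b5 had 15.4, 38.7 and 26.9 CPM in GFP High 1, 2 and 3. It had 20.6, 19.8 and 9.05 in GFP Low 1, 2 and 3, and 17.9, 24.1 and 16.4 in RFP 1, 2 and 3. GFP High 2 and GFP Low 3 stood apart, with the highest library 4.27 times the lowest, against 1.41 to 1.70 times for the other 5 genes.

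**Figure D3:**
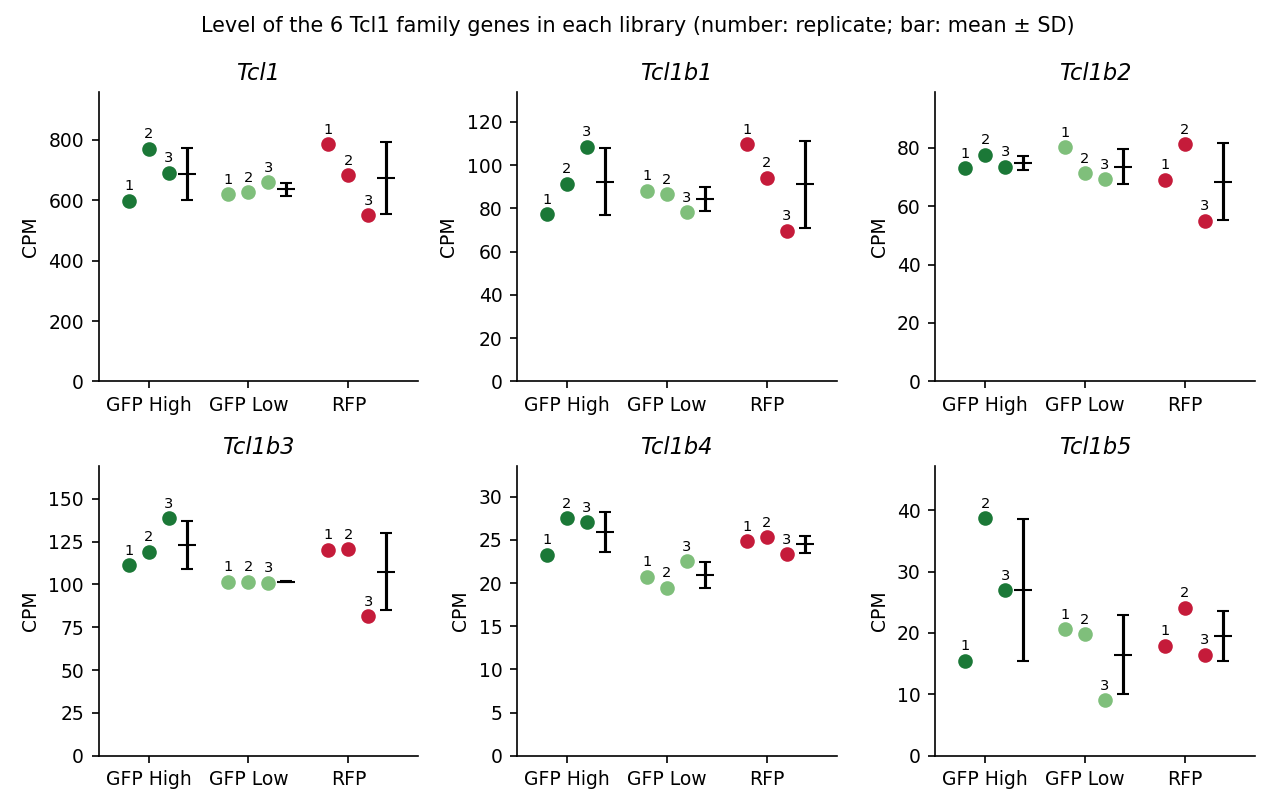
CPM of each family gene in the 9 libraries, with the replicate number above each point and the mean ± SD (n = 3) of each group as a bar, and every axis starting at 0. RFP 3 is the lowest library for Tcl1, Tcl1b1, Tcl1b2 and Tcl1b3, and Tcl1b5 varies most, from 9.05 to 38.7 CPM.

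The spread between replicates differed among the 6 genes. Within groups, the SD of log2 CPM was 0.57 for Tcl1b5 and 0.10 for Tcl1b4, although both have about the same level. Genes within a factor of 2 of the level of Tcl1b5 had a median SD of 0.26, and 95.1% of those 3392 genes varied less than Tcl1b5. Of 3389 genes near the level of Tcl1b4, 2.30% varied less than it did. Tcl1, at an SD of 0.19, also varied more than 94.1% of the 555 genes near its level, whose median was 0.10. Tcl1b1 (0.24), Tcl1b3 (0.21) and Tcl1b2 (0.18) varied more than 86.6%, 81.4% and 55.6% of genes near their levels.

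Several genes moved together from library to library. In RFP 3 and in GFP Low 3 all 6 genes were below their own mean over the 9 libraries, and in GFP High 2, GFP High 3 and RFP 2 all 6 were above it. On the log2 scale the median deviation was -0.30 in RFP 3 (from -0.43 to -0.018) and -0.09 in GFP Low 3 (from -1.11 to -0.0018). It was 0.17 in GFP High 2, 0.24 in GFP High 3 and 0.12 in RFP 2. Some genes thus lay almost at their own mean in RFP 3 and GFP Low 3. Across the 9 libraries the log2 CPM of Tcl1b1 and Tcl1b3 correlated with r = 0.850, that of Tcl1 and Tcl1b1 with r = 0.799 and that of Tcl1 and Tcl1b3 with r = 0.739. The other 12 pairs ranged from 0.125 (Tcl1b2 and Tcl1b4) to 0.671 (Tcl1b2 and Tcl1b3). These values describe libraries that share groups and scaling, and Tcl1b pairs can also share reads, as the shares of common stretches given above show, which does not hold for pairs with Tcl1. Measured against Tcl1 over the same 9 libraries, the most similar of 6056 other genes at 20 CPM or more were Fam172a (r = 0.972), Rsph3b (0.966), Srp14 (0.931), Magoh (0.928) and Ubb (0.927). In that order Tcl1b1 took place 72, Tcl1b3 151, Tcl1b4 474, Tcl1b2 805 and Tcl1b5 947. With Spearman's rho, 1 of those 5 genes stayed among the leading 5, so the order rests on the measure chosen.

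GFP High was compared with RFP to ask whether eggs picked for a strong green signal differ from eggs picked as red. In edgeR's quasi-likelihood test 0 of 6 family genes passed an adjusted p of 0.05, where 2 of 14829 genes tested did (0.0135%), and 0 of 6 had an unadjusted p under that value, against 4.09% of genes. All 6 log2 fold changes were above 0, with a median of 0.11 against -0.01 over all genes tested. Tcl1 averaged 686 ± 86.4 CPM (SD, n = 3) over the GFP High pools and 673 ± 118 over the RFP pools. The log2 ratio was 0.03 (SE 0.14, adjusted p = 0.998 in edgeR), and its 95% interval ran from 0.827 to 1.27 times. The interval of Tcl1b5 was the widest, from 0.853 to 2.27 times around a log2 ratio of 0.47 (SE 0.32, adjusted p = 0.997 in edgeR), and it was 0.12 without GFP High 2. Without GFP High 1 it was 0.75, with an unadjusted p of 0.0165 and an adjusted p of 0.464 in edgeR, so that 1 of 6 genes was then under 0.05 before adjustment. The other 4 were at 0.20 (Tcl1b3), 0.13 (Tcl1b2), 0.09 (Tcl1b4) and 0.02 (Tcl1b1). That of Tcl1b3 was 0.03 without RFP 3 and 0.10 without GFP High 3. Without RFP 3 the log2 fold changes of Tcl1, Tcl1b1 and Tcl1b2 turned to -0.10, -0.14 and -0.01, without GFP High 2 that of Tcl1 turned to -0.06, and without GFP High 3 that of Tcl1b1 turned to -0.11.

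GFP Low was compared with the same RFP libraries for eggs with a weak green signal. Again 0 of 6 genes passed in edgeR, where 3 of 15199 genes did (0.0197%), and 0 of 6 had an unadjusted p under 0.05, against 2.62%. The log2 fold changes were below 0 for 5 genes and above 0 for Tcl1b2, with a median of -0.10 against 0.00 over all genes. Tcl1b4 showed the clearest separation, at 20.9 ± 1.54 CPM (SD, n = 3) over the GFP Low pools and 24.5 ± 1.02 over the RFP pools, or -0.23 on the log2 scale (SE 0.13, adjusted p = 1.000 in edgeR). Its libraries did not overlap between the groups, as for 7.69% of all genes tested. Tcl1 was at -0.08 (SE 0.11), with an interval of 0.805 to 1.11 times, and Tcl1b1 at -0.11, Tcl1b3 at -0.08, Tcl1b5 at -0.24 and Tcl1b2 at 0.11. Without RFP 3, Tcl1 was at -0.21, Tcl1b1 at -0.27 and Tcl1b3 at -0.25, and 3 of 6 genes then had an unadjusted p under 0.05 in edgeR (0.0194, 0.0273 and 0.0164), with an adjusted p of 0.999 each. In the same fit Tcl1b2 turned from 0.11 to -0.03. Without RFP 1, Tcl1, Tcl1b1 and Tcl1b3 turned to 0.04, 0.04 and 0.01, Tcl1b3 also to 0.01 without RFP 2, and Tcl1b5 to 0.05 without GFP Low 3.

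The contrast of GFP High and GFP Low asked whether the strength of the green signal goes with the level of these genes. In edgeR 0 of 6 passed an adjusted p of 0.05, where 0 of 14785 genes did (0%), and 1 of 6, Tcl1b3, had an unadjusted p under 0.05, against 3.77% of genes. DESeq2's Wald test and limma-voom also gave 0 of 6 at an adjusted p of 0.05. All 6 log2 fold changes were above 0, with a median of 0.21 against 0.00 over all genes. Tcl1b3 averaged 122.9 ± 14.1 CPM (SD, n = 3) over the GFP High pools and 101.4 ± 0.329 over the GFP Low pools. The GFP Low values rest on 1972, 2661 and 2804 counts, and their spread is smaller than the counting error of such counts. The log2 ratio of Tcl1b3 was 0.28 (SE 0.11, adjusted p = 0.998 in edgeR), with an interval of 1.02 to 1.44 times. Its unadjusted p in edgeR, 0.0327, was 0.0779 in the fit of all 9 libraries and 0.0607 with the replicate block. It was 0.0792 to 0.0868 without any 1 GFP Low library and 0.119 without GFP High 3, where the log2 ratio was 0.18. Other methods kept it under 0.05, at 0.0162 in DESeq2's Wald test, 0.0396 in limma-voom and 0.0355 in edgeR without the filter. The adjusted p in these 3 was 0.658 to 0.827. Tcl1b4 was at 0.31 (SE 0.19), with an interval of 0.933 to 1.65 times. For both genes all 3 GFP High libraries exceeded all 3 GFP Low libraries, as for 11.5% of genes tested that did not overlap in either direction. Tcl1b5 was at 0.72 (SE 0.38), which was 0.36 without GFP High 2 and 0.41 without GFP Low 3. Without GFP High 1 it was 0.99, and Tcl1, Tcl1b3 and Tcl1b5 then had an unadjusted p of 0.0382, 0.0145 and 0.0210 in edgeR, with adjusted p from 0.520 to 0.529. Tcl1 was at 0.11 (SE 0.09), and at 0.02 without GFP High 2 and 0.19 without GFP High 1. Tcl1b1 was at 0.13 and Tcl1b2 at 0.03. Tcl1b2 went just below 0 without GFP High 2, GFP Low 2 or GFP Low 3, and Tcl1b1 without GFP High 3. The 8 oocyte markers had the same signs of their medians as the family. These were 0.15 for GFP High over RFP, -0.07 for GFP Low over RFP and 0.10 for GFP High over GFP Low. Between the GFP groups all 8 were above 0, and 3 of 8 had an unadjusted p under 0.05 in edgeR, against 3.77% of genes. For GFP High over RFP 2 of 8 did, against 4.09%, and for GFP Low over RFP 0 of 8. All of these were higher in GFP High, and 0 of 8 passed an adjusted p of 0.05 in any comparison. The part of the markers in the family's values was not tested. The comparisons share libraries pairwise, so their values for a gene are not independent of each other.

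**Figure D4:**
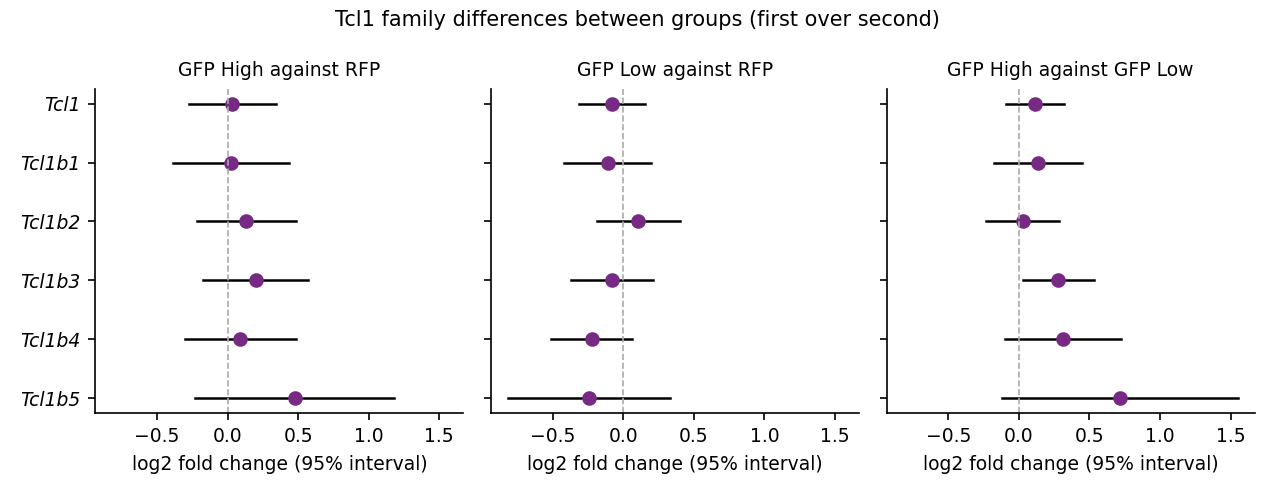
Log2 fold change of each family gene in the 3 comparisons (point, edgeR) with its 95% interval (line). Every interval holds 0 except that of Tcl1b3 in GFP High against GFP Low, which starts at 0.03, and the intervals of Tcl1b5 are the widest.

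AKT and the genes around it, the setting in which TCL1 is known to act, were followed through a list of 30 genes. In edgeR 0 of 30 passed an adjusted p of 0.05 in any of the 3 comparisons, and 0 of 30 had an unadjusted p under 0.05. The list's median log2 ratio was -0.02 for GFP High over RFP, -0.02 for GFP Low over RFP and 0.03 for GFP High over GFP Low. In RPKM, the kinase genes Akt1 and Akt2 were at 9.94 ± 1.58 and 3.71 ± 0.412 (SD, n = 9). Tcl1, at 360.4 RPKM, thus exceeded both. Hsp90aa1, the chaperone of AKT and many other kinases, was at 2168 ± 102.3 RPKM and Foxo3, a transcription factor that AKT phosphorylates, at 107.7 ± 10.4. The smallest unadjusted p in GFP High against RFP belonged to Rictor, a subunit of the kinase complex that phosphorylates AKT, at a log2 fold change of -0.20 (SE 0.10), Foxo1 at -0.20 (SE 0.11) and the co-chaperone Cdc37 at 0.21 (SE 0.12). For GFP Low over RFP it belonged to Rictor at -0.15, Cdkn1b at 0.11 and Mapkap1 at -0.09, and between the GFP groups to Foxo3 at -0.14, Foxo1 at -0.19 and Tsc1 at -0.24.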

How the data were processed

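Poly-A RNA from 9 pools of mouse oocytes was read from both fragment ends, per the labels' protocols. The submitters' processing notes name fastp, HISAT2 2.0.5, featureCounts 1.5.0-p3 and DESeq2 1.20.0 with the build mm10. Each pair of groups has 1 table deposited by the authors, with raw counts per gene, a normalised signal (counts divided by a size factor), FPKM values, a log2 fold change and p-values. The counts entered all tests, the deposited FPKM values served as an alternative scale, and the deposited signal, log2 fold changes and p-values were not used.

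The 3 tables were joined by gene identifier into 30153 genes by 9 libraries, with 178 genes set to 0 where a table lacked them. Coordinates and exon lengths of the 6 genes were identical to GENCODE M21 (GRCm38). Each pair of groups was fitted on its whole table with edgeR 4.0.16 under R 4.3.3 (filterByExpr, TMM, glmQLFit, glmQLFTest, no covariate). The adjusted p is the Benjamini-Hochberg value over all genes tested, with a threshold of 0.05. Intervals at 95% use the moderated degrees of freedom. The script was tested on simulated data. limma 3.58.1 and DESeq2 1.42.0 gave alternatives. At 1 CPM a gene rests on 19.4 reads in the smallest library, and reads carry no molecular identifiers, so limits from counts cover counting error only. The limit of detection was taken as 3 counts. Sequences were aligned globally with Biopython 1.88.

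Named were the 6 genes, Mtcp1, neighbours within 500 kb, Akt1 and Akt2 with up to 3 others of the AKT list by smallest p in each comparison, oocyte genes as a scale, and the 5 genes most like Tcl1 by Pearson's r. Some genes of these lists are not reported here. The gene members and lists were chosen with earlier results of these data known.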

Additional observations from a re-analysis of the deposited data

How the results depend on the processing

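With 0 of 6 family genes called in each comparison, every alternative run also gave 0, namely DESeq2's size factors in edgeR, the DESeq2 Wald test, limma-voom, no filter on low counts, the fit of all 9 libraries, the replicate block, bias-adjusted deviances (chosen after seeing the data) and each fit without 1 library. Unadjusted p-values varied more, with 0 to 1, 0 to 3 and 0 to 3 of 6 genes under 0.05 in these fits, in the order of the report. The lowest adjusted p over these was 0.464 for GFP High over RFP, 0.814 for GFP Low over RFP and 0.520 between the GFP groups. Of 234 log2 fold changes under an alternative, 15 changed sign, all in fits without 1 library. In such fits the values of GFP High over RFP ran from -0.10 to 0.15 for Tcl1, from -0.14 to 0.17 for Tcl1b1 and from -0.0088 to 0.27 for Tcl1b2. Those of GFP Low over RFP ran from -0.21 to 0.045 for Tcl1, -0.27 to 0.041 for Tcl1b1, -0.032 to 0.25 for Tcl1b2, -0.25 to 0.012 for Tcl1b3 and -0.44 to 0.051 for Tcl1b5. Between the GFP groups they ran from -0.0048 to 0.24 for Tcl1b1 and from -0.022 to 0.089 for Tcl1b2. With the length of the lowest-numbered transcript, chosen after seeing the data, the mean log2 ratio of Tcl1 over Tcl1b3 was 2.17 in place of 1.77, that of Tcl1b1 over Tcl1b2 0.26 in place of 0.57, and that of Tcl1b5 over Tcl1b4 turned from 0.23 to -0.31, because the lengths differ. The order with lengths of the proteins was not run. Without 1 library the summed level ran from 981 to 1095 CPM in GFP High, 929 to 936 in GFP Low and 912 to 1078 in RFP.

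Libraries were not paired by their replicate numbers. Same-numbered libraries correlated in their deviations at -0.20 to 0.089 for GFP High and RFP, -0.21 to 0.16 for GFP Low and RFP and -0.18 to 0.20 between the GFP groups, over genes at 20 CPM or more. With the replicate block, 0 family genes were called, the unadjusted p of Tcl1b3 between the GFP groups was 0.0607 in edgeR in place of 0.0327, and over all genes 4, 3 and 0 in place of 2, 3 and 0. Over all genes the DESeq2 Wald test gave 12, 10 and 4 calls, the fit with no filter 16, 34 and 16, and limma-voom 1, 1 and 0. The 2 calls of GFP High over RFP went to 0 when either of GFP High 1 and 3 or either of RFP 2 and 3 was left out, and the 0 calls between the GFP groups to 1 when GFP High 3 was. The cause was not tested.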

Other observations

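Lists of genes from other cell types that use Tcl1 held further transcripts found in these libraries. Whether they come from the egg or from other cells in the pools was not tested. Of 12 lymphocyte genes, 9 were matched to the tables, and 2 had a mean of 1 CPM or more. Ms4a1, which encodes the B cell surface protein CD20, had 92.4, 76.8 and 76.5 CPM in GFP High 1, 2 and 3, 91.0, 86.5 and 83.1 in GFP Low 1, 2 and 3, and 80.3, 83.6 and 98.2 in RFP 1, 2 and 3. The level was thus present in all 9 libraries, and 1 other annotated gene overlaps Ms4a1. Cd4, a T cell co-receptor, had 4.47 to 12.5 CPM in GFP High, 5.62 to 9.39 in GFP Low and 7.02 to 8.05 in RFP. The B cell gene Cd79a had at most 3 counts in any library, and the T cell gene Cd3d at most 2.

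Of 8 genes of pluripotent cells, 5 had a mean of 1 CPM or more. Pou5f1, the transcription factor OCT4, was at 247.1 CPM and Esrrb, an orphan nuclear receptor, at 76.5 CPM on average over the 9 libraries, whereas Nanog had 0 to 28 counts and Tdgf1 0 to 3. In edgeR 0 of the 6, 6 and 5 genes tested passed an adjusted p of 0.05 for GFP High over RFP, GFP Low over RFP and GFP High over GFP Low, and 0 had an unadjusted p under 0.05.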
